A study of Homo sapiens with 6 samples.

Results

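The 50 genes described here encode 39 receptor tyrosine kinases and 11 ligands of such receptors. They were taken by gene symbol from a table of 61860 genes. RNA was sequenced from 786-O, an established human line derived from a clear cell renal cell carcinoma with no functional VHL. The cells stably expressed an shRNA against METTL3 (METTL3 shRNA) or a control shRNA, and each group had 3 libraries, called A, B and C. Both groups therefore carried an shRNA construct, and no cells without one were analysed here. The labels give neither the number of METTL3 shRNA sequences nor that of clones, nor do they tell whether the 3 libraries were grown as separate cultures. The p-values therefore measure the spread among these libraries and no more, and that spread may be technical.

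Receptor tyrosine kinases cross the plasma membrane once, bind a ligand outside the cell and carry a kinase domain inside it. Ligand binding brings receptors together, their kinases phosphorylate one another, and adaptor proteins dock on the phosphorylated tails and pass the signal to RAS-MAPK, PI3K-AKT and phospholipase C. In clear cell renal cell carcinoma the loss of VHL leaves hypoxia-inducible factors active, and VEGF and PDGF ligands are among their known targets. Kinase inhibitors used against this cancer act on VEGF receptors, and some also on MET and AXL. METTL3 is the catalytic subunit of the enzyme complex that writes N6-methyladenosine (m6A) into mRNA, a mark read by proteins that act on mRNA decay and translation. The m6A mark itself was not measured.

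METTL3, the targeted gene, had 1064, 956 and 1145 counts in the METTL3 shRNA libraries, against 3874, 4060 and 4141 counts in the control libraries (log2 fold change −1.80, SE 0.08, adjusted p = 1.45e-07). The 3 METTL3 shRNA libraries were all below the 3 control libraries. METTL3 shares exonic positions with TOX4 on the other strand, and no source used here tells if the counting used the strand. Total counts were 100534896 to 101473388 in the METTL3 shRNA libraries and 102420127 to 103624456 in the control libraries, and mitochondrial transcripts took 7.77 to 8.50% of them in METTL3 shRNA libraries and 4.23 to 4.75% in control libraries. The part of that share in the results was not tested. All 7 markers of a renal tubular carcinoma line (PAX8, PAX2, KRT8, KRT18, VIM, EPAS1 and CDH2) were detected, with summed levels of 1953 to 2566 FPKM in METTL3 shRNA libraries and 1332 to 1615 FPKM in control libraries. Most of that difference was in VIM, which averaged 1792 ± 332 FPKM in METTL3 shRNA libraries and 956 ± 127 FPKM in control libraries (SD, n = 3 each), and PAX2, KRT8 and KRT18 were no higher in METTL3 shRNA libraries in mean FPKM. Markers of endothelial cells, of which 4 of 5 had at most 5 counts in any library, summed to 0.550 to 0.570 FPKM in METTL3 shRNA libraries and 0.820 to 1.14 FPKM in control libraries, and those of fibroblasts to 0.270 to 0.480 FPKM in METTL3 shRNA libraries and 0.540 to 1.19 FPKM in control libraries. Blood cell markers summed to 76.5 to 85.1 FPKM in METTL3 shRNA libraries and 40.3 to 47.7 FPKM in control libraries, nearly all of it CD68, while PTPRC and CD3E had at most 5 counts in any library.

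Most of the receptor RNA in these cells came from 5 genes, EPHA2, AXL, EGFR, FGFR1 and MET, and of these AXL alone passed the test, as a rise. Beyond them, the RNA of ROR2, PTK7, DDR1 and the ligand AREG also rose in METTL3 shRNA cells. MERTK, FGFR2, FGFR3, PDGFRB, EPHA4, EPHB2, ROR1 and NTRK3 fell, and so did the ligands HBEGF, PDGFB, EFNB1 and EFNB2. Of the 50 genes, 37 had enough counts to be tested. Of these 37, 17 passed an adjusted p of 0.05 in edgeR's quasi-likelihood test (45.9%), where 33.5% of all 18740 tested genes did. By direction, 5 were higher (13.5%, against 16.5% of all tested genes) and 12 were lower (32.4%, against 16.9%). The median log2 fold change was −0.13 over the 37 genes and −0.0030 over all tested genes. In 18 of the 37 the CPM values of the groups did not overlap (CPM express counts relative to a library total adjusted by TMM), while 47.4% of all tested genes had no overlap. With scaling by library size alone the median of all tested genes moved to −0.11, the share of calls that were higher was 29.6% in place of 49.4%, and 4 of the 37 were called higher and 16 lower. In bulk RNA fewer cells that express a gene and less RNA per cell cannot be told apart.

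**Figure D1:**
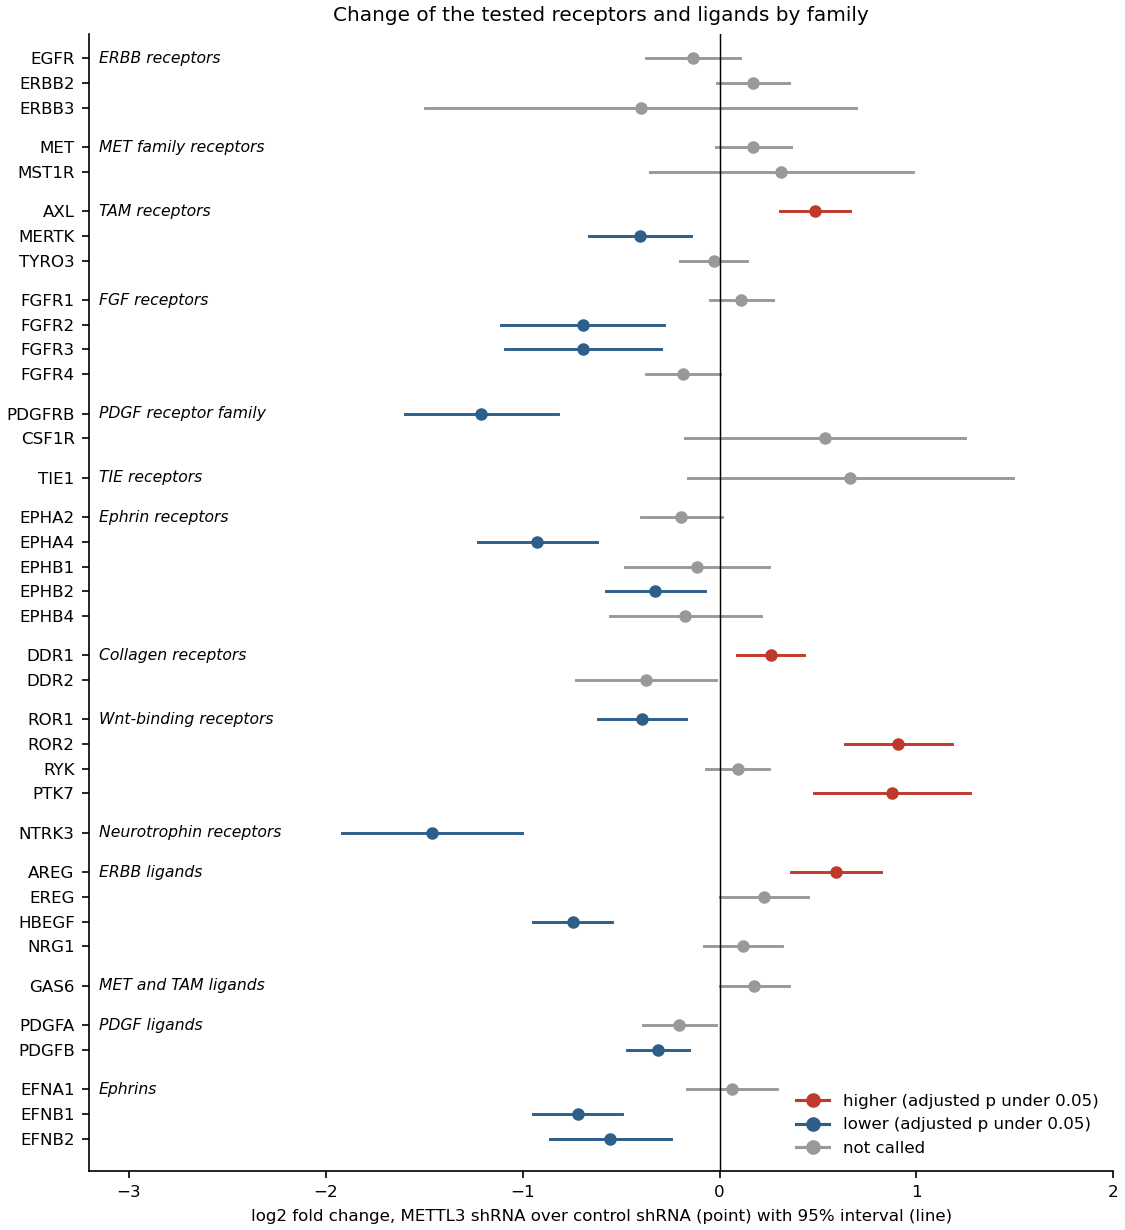
Log2 fold change of the 37 tested genes, METTL3 shRNA over control shRNA (x axis), with its 95% interval, by family; red marks the 5 higher genes, blue the 12 lower ones and grey the 20 that did not pass the test. Points run from −1.46 for NTRK3 to 0.91 for ROR2, and the ROR, TAM and ERBB ligand families each hold members on both sides of 0.

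Levels are compared between genes as deposited FPKM, which are scaled to transcript length as well as depth. EPHA2, a receptor of ephrin-A ligands, was the most abundant receptor, at 258, 271 and 323 FPKM in the METTL3 shRNA libraries and 334, 331 and 382 FPKM in the control libraries. AXL was next, at 186, 205 and 198 FPKM in METTL3 shRNA libraries and 155, 146 and 154 FPKM in control libraries. In every library EPHA2 was above AXL and AXL above every other receptor. EGFR averaged 80.7 ± 15.8 FPKM in METTL3 shRNA libraries and 87.4 ± 2.98 FPKM in control libraries (SD, n = 3 each), FGFR1 65.4 ± 2.72 FPKM in METTL3 shRNA and 62.1 ± 2.64 FPKM in control libraries, and MET 61.4 ± 7.31 FPKM in METTL3 shRNA and 59.6 ± 0.671 FPKM in control libraries. In METTL3 shRNA libraries the ranges of EGFR, FGFR1 and MET overlapped from one to the next. In control libraries only those of FGFR1 and MET did. RYK, a receptor of WNT ligands whose kinase domain is inactive, followed at 26.2 ± 1.59 FPKM in METTL3 shRNA and 29.1 ± 1.22 FPKM in control libraries, and ERBB2 at 18.0 ± 1.08 FPKM in METTL3 shRNA and 17.3 ± 1.08 FPKM in control libraries. The levels of all 39 receptors summed to 804 ± 62.1 FPKM in METTL3 shRNA libraries and 836 ± 38.3 FPKM in control libraries, of which the 5 leading genes made up 85.5 ± 0.61% in METTL3 shRNA libraries and 84.9 ± 0.077% in control libraries (SD, n = 3 each).

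**Figure D2:**
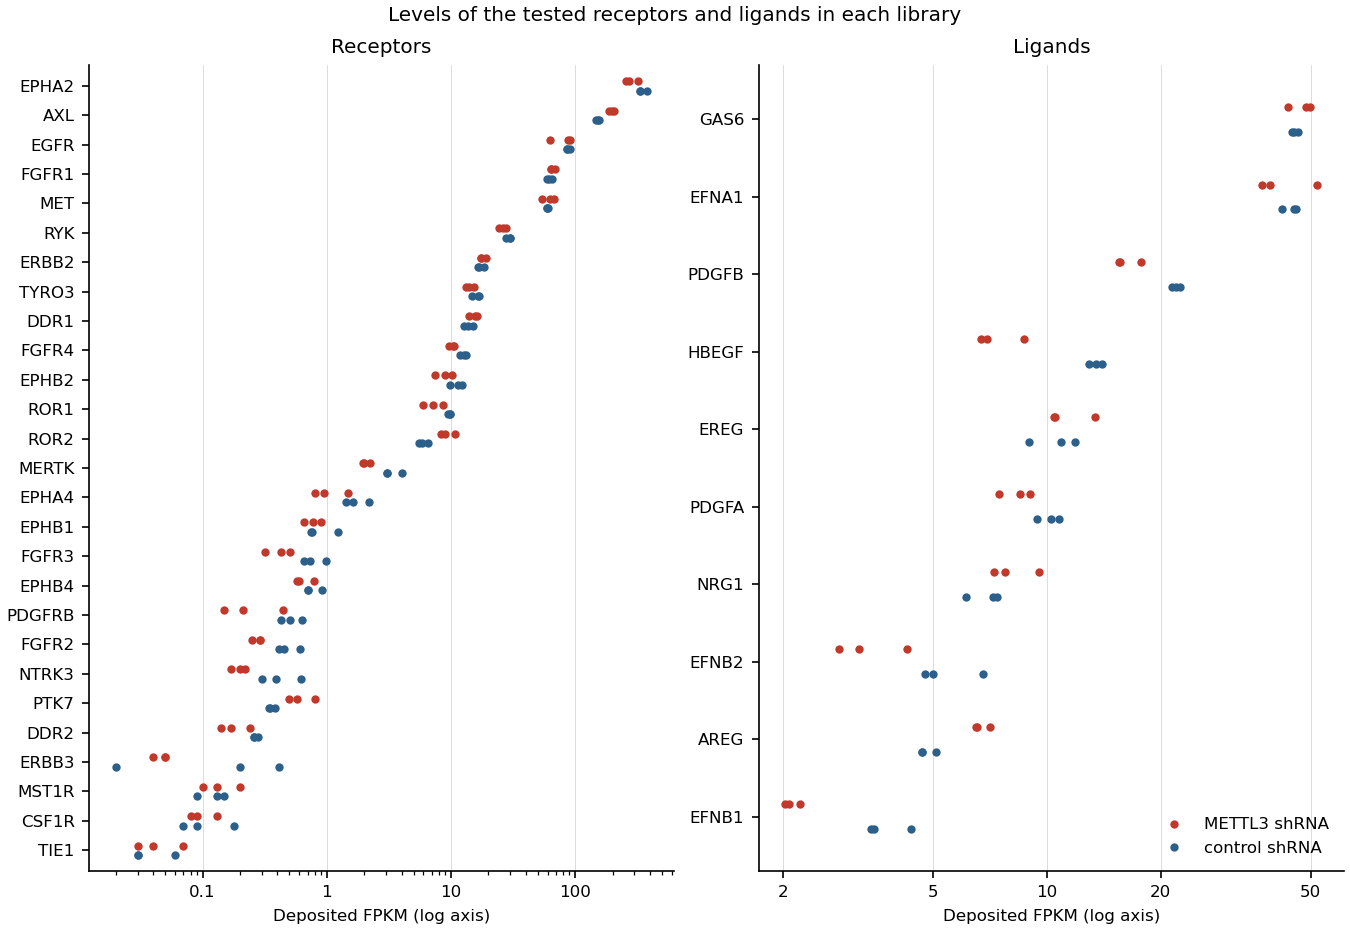
Deposited FPKM of each tested receptor (left) and ligand (right) in every library, on log axes, with METTL3 shRNA in red above control shRNA in blue for each gene. EPHA2 (258 to 323 FPKM with METTL3 shRNA, 331 to 382 FPKM with control shRNA) and AXL (186 to 205 FPKM with METTL3 shRNA, 146 to 155 FPKM with control shRNA) stand above all other receptors, while the receptors from FGFR3 down lie under 1 FPKM in every library.

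Drug-targeted receptors were read on the CPM scale for the test. MET, the receptor of hepatocyte growth factor (chr7:116672390-116798386, plus strand, GRCh38), had 353, 428 and 387 CPM in METTL3 shRNA libraries and 356, 352 and 327 CPM in control libraries. The groups overlapped, and the difference did not pass the test (log2 fold change 0.17, SE 0.09, adjusted p = 0.154, 95% interval −0.02 to 0.36). EGFR, the receptor of EGF, TGFA and amphiregulin (chr7:55019021-55211628, plus strand), had 549, 715 and 753 CPM in METTL3 shRNA libraries and 779, 722 and 712 CPM in control libraries. Library A of METTL3 shRNA lay below the other 5 libraries, and the groups overlapped (log2 fold change −0.13, SE 0.11, adjusted p = 0.380, interval −0.37 to 0.11). Without that library the EGFR difference was −0.01 on the log2 scale. EGFR shares exonic positions with EGFR-AS1, so its counts are less certain, since the counts may be mixed with those of the antisense gene. ERBB2 shares positions with MIEN1 and PGAP3, and FGFR1 with LETM2. ERBB2, the ligandless partner of the other ERBB receptors, had 70.7, 75.9 and 65.8 CPM in METTL3 shRNA libraries and 68.9, 60.8 and 58.9 CPM in control libraries, with overlap (log2 fold change 0.17, SE 0.08, adjusted p = 0.137, interval −0.01 to 0.35). FGFR1 had 198, 202 and 185 CPM in METTL3 shRNA libraries and 182, 178 and 182 CPM in control libraries, without overlap but short of the threshold (log2 fold change 0.11, SE 0.07, adjusted p = 0.278, interval −0.05 to 0.27). For these 4 receptors the upper bounds of the intervals lay between 0.11 and 0.36 and the lower bounds between −0.37 and −0.01 on the log2 scale, so a rise or fall larger than these lies outside them.

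EPHA2 (chr1:16124337-16156087, minus strand) had 994, 1016 and 1182 CPM in METTL3 shRNA libraries and 1202, 1154 and 1295 CPM in control libraries. Library C of METTL3 shRNA was above control library B, so the groups overlapped, and the difference did not pass the test (log2 fold change −0.19, SE 0.10, adjusted p = 0.136, interval −0.40 to 0.01). It passed in the fit without library C of METTL3 shRNA (log2 fold change −0.27, adjusted p = 0.0399), and also with scaling by library size alone (−0.30, adjusted p = 0.0277).

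The TAM receptors AXL, MERTK and TYRO3 bind GAS6 and take part in survival signalling and the clearance of dying cells. AXL (chr19:41219203-41261766, plus strand) had 846, 897 and 848 CPM in METTL3 shRNA libraries and 645, 600.0 and 606 CPM in control libraries. Every METTL3 shRNA library was above every control library, and AXL rose by 39.9% (log2 fold change 0.48, SE 0.08, adjusted p = 8.86e-04). The call was kept under all 16 alternative fits. MERTK had 4.72, 5.07 and 4.51 CPM in METTL3 shRNA libraries and 6.05, 5.58 and 7.28 CPM in control libraries. The groups did not overlap, and MERTK fell by 24.4% (log2 fold change −0.40, SE 0.12, adjusted p = 0.0204). Its call was lost without library A of METTL3 shRNA (adjusted p = 0.0577) and without control library C (adjusted p = 0.0839). TYRO3 had 36.4, 36.3 and 33.3 CPM in METTL3 shRNA libraries and 39.0, 34.8 and 34.5 CPM in control libraries, with overlapping groups and a log2 fold change of −0.03 that did not pass the test (adjusted p = 0.797). Their ligand GAS6 had the highest mean level of the 11 ligands, at 47.3 ± 3.28 FPKM in METTL3 shRNA libraries and 45.3 ± 0.800 FPKM in control libraries, and did not pass the test (log2 fold change 0.18, adjusted p = 0.108). It passed without library C of METTL3 shRNA (log2 fold change 0.25, adjusted p = 0.0241). AXL shares exonic positions with AC011510.1 and GAS6 with GAS6-AS1, which makes both less certain.

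Of the 4 WNT-binding receptors, 2 rose and 1 fell (16.5% of all tested genes were higher and 16.9% lower). ROR1 and ROR2 are related receptors of WNT5A, and PTK7 is a pseudokinase of planar cell polarity signalling. ROR2 (chr9:91563091-91950162, minus strand) had 32.0, 38.6 and 26.7 CPM in METTL3 shRNA libraries and 19.2, 17.8 and 14.8 CPM in control libraries. The groups did not overlap, and ROR2 rose by 87.7% (log2 fold change 0.91, SE 0.13, adjusted p = 2.60e-04). ROR1 (chr1:63774022-64181498, plus strand) had 31.5, 37.1 and 44.2 CPM in METTL3 shRNA libraries and 51.2, 48.1 and 49.0 CPM in control libraries. It fell by 23.9% with no overlap (log2 fold change −0.39, SE 0.10, adjusted p = 0.0112). Within a library, the FPKM of ROR2 over that of ROR1 was 1.51, 1.50 and 0.968 in METTL3 shRNA libraries and 0.557, 0.683 and 0.593 in control libraries, so that ROR2 was above ROR1 in METTL3 shRNA libraries A and B and below it in the other 4. PTK7 had 1.78, 1.99 and 1.64 CPM in METTL3 shRNA libraries and 1.19, 0.966 and 0.790 CPM in control libraries. PTK7 was thus low in all 6 libraries and higher in every METTL3 shRNA library (log2 fold change 0.87, SE 0.18, adjusted p = 0.00316). RYK had 53.5, 53.7 and 57.7 CPM in METTL3 shRNA libraries and 49.1, 53.6 and 51.9 CPM in control libraries, overlapped, and did not pass the test (log2 fold change 0.09, adjusted p = 0.364).

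Both ROR transcripts hold GGACT, the core of the sequence in which METTL3 is known to methylate adenosine. The stretches of 25 bases around the match nearest the stop codon are shown for the ROR pair, which moved apart, and for HBEGF, a ligand that fell. They are read from the GENCODE 29 transcripts of the GRCh38 genome, 5′ to 3′ with T for U, and capitals mark the match.
ROR2: agctgctgggGGACTgtgacactct
ROR1: gtcctgggagGGACTctcaagtcac
HBEGF: aatcggctggGGACTgctacctctg
The match begins 49 bases before the first base of the stop codon in ROR2 and 561 bases before it in ROR1, both in coding sequence. In HBEGF it begins 32 bases after the first base of the stop codon, in the 3′ UTR. The AREG transcript, which is 1240 bases long, holds no GGACT. The median density of GGACT was 1.40 per kilobase in the 5 genes that rose, 1.46 in the 12 that fell and 1.02 in the 20 that did not pass the test. Over the 13810 tested protein-coding genes the median density was 0.985 in those that rose, 0.934 in those that fell and 0.936 in the others. A match is only these letters and no measured methylation.

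**Figure D3:**
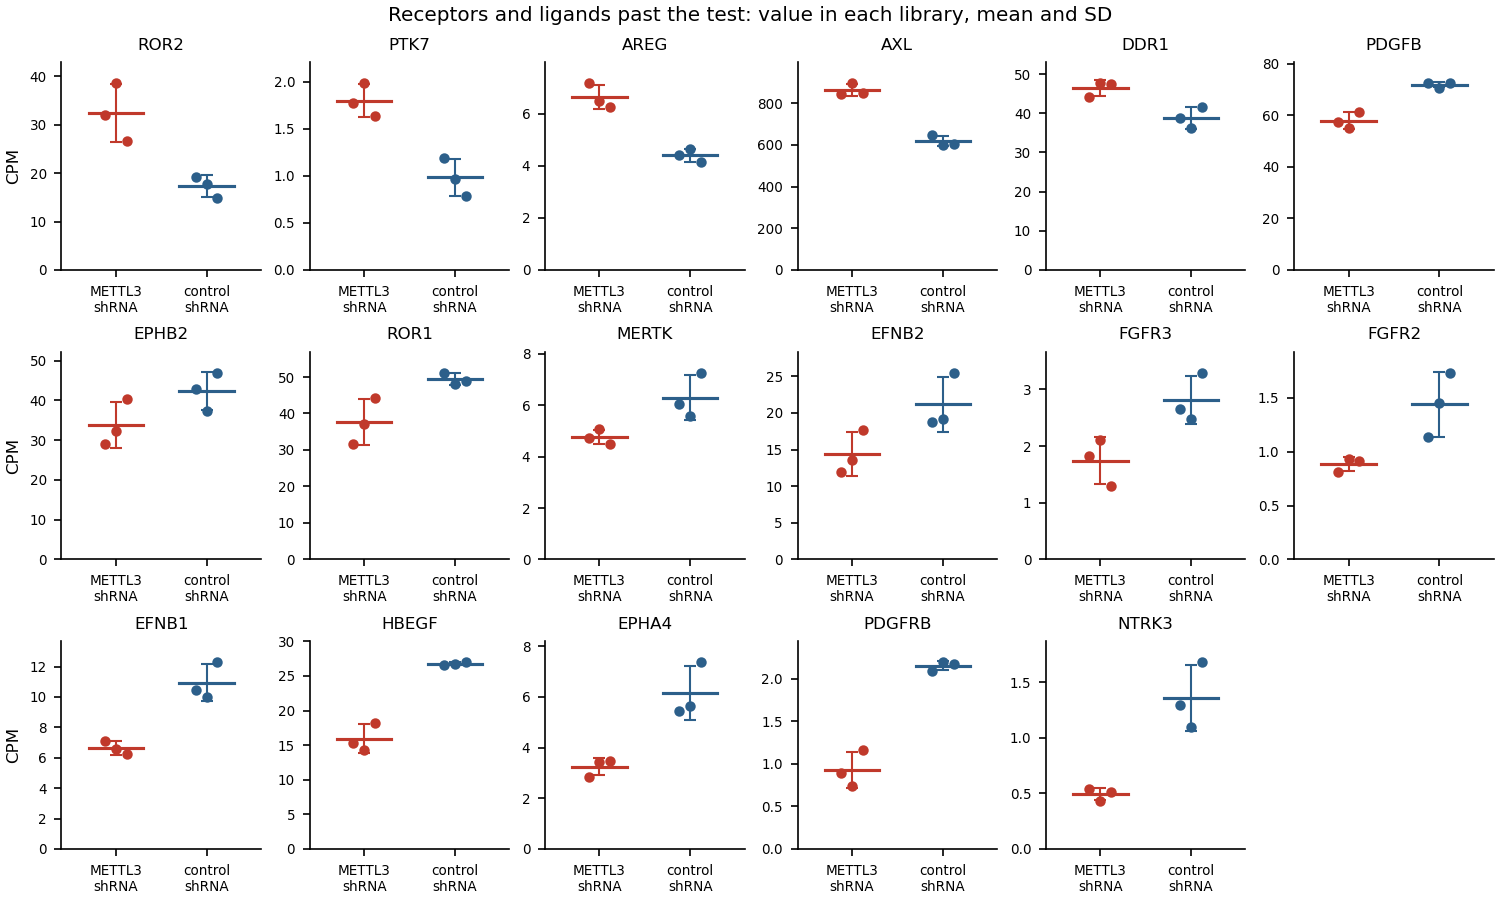
CPM of the 17 genes that passed the test in each library (points), with mean (line) and SD (error bar; n = 3 each), METTL3 shRNA in red left of control shRNA in blue, from the largest rise to the largest fall. The groups overlap in EPHB2 and in no other of the 17 genes.

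Of the 4 FGF receptors, the 2 scarcest fell (16.9% of all tested genes were lower, and 12.4% of those under 10 CPM). FGFR1, the abundant one, is given with the drug-targeted receptors. FGFR2 had 0.815, 0.937 and 0.918 CPM in METTL3 shRNA libraries and 1.13, 1.45 and 1.74 CPM in control libraries, without overlap (log2 fold change −0.70, SE 0.19, adjusted p = 0.0140). FGFR3 had 1.82, 2.11 and 1.30 CPM in METTL3 shRNA libraries and 2.66, 2.49 and 3.30 CPM in control libraries, also without overlap (log2 fold change −0.69, SE 0.18, adjusted p = 0.0117). Both are receptors of fibroblast growth factors, FGFR2 fell by 38.2% and FGFR3 by 38.1%, and both were scarce, with means under 1 FPKM in each group. The call of FGFR2 was lost without library A of METTL3 shRNA (adjusted p = 0.0567) and without control library C (adjusted p = 0.0537). FGFR4 had 28.2, 26.3 and 22.8 CPM in METTL3 shRNA libraries and 29.7, 27.9 and 30.2 CPM in control libraries, a difference that did not pass the test (log2 fold change −0.18, adjusted p = 0.121). With scaling by library size alone FGFR4 passed (log2 fold change −0.30, adjusted p = 0.0183).

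In the PDGF receptor family, PDGFRB, the receptor of PDGF-B known from pericytes and fibroblasts (chr5:150113837-150155872, minus strand), had 0.889, 0.741 and 1.16 CPM in METTL3 shRNA libraries and 2.09, 2.19 and 2.17 CPM in control libraries. It fell by 56.8% with no overlap (log2 fold change −1.21, SE 0.18, adjusted p = 3.87e-04). As counts these were 84, 72 and 116 in METTL3 shRNA libraries and 218, 234 and 239 in control libraries. In FPKM the groups overlapped, with 0.15, 0.44 and 0.21 in METTL3 shRNA libraries and 0.51, 0.63 and 0.43 in control libraries. METTL3 shRNA library B thus had the lowest count but the highest FPKM of its group. With limma on log2(FPKM + 1) and no filter PDGFRB did not pass (adjusted p = 0.138). The fibroblast markers above were low in both groups and lower in METTL3 shRNA libraries, and their part in the fall of PDGFRB was not tested. PDGFB, its ligand and a known hypoxia target, had 57.2, 55.2 and 61.4 CPM in METTL3 shRNA libraries and 72.5, 70.6 and 72.5 CPM in control libraries, without overlap (log2 fold change −0.31, SE 0.07, adjusted p = 0.00595). PDGFA had 20.1, 20.5 and 17.3 CPM in METTL3 shRNA libraries and 23.2, 20.9 and 22.7 CPM in control libraries, again without overlap, but did not pass the test (log2 fold change −0.20, adjusted p = 0.0872). PDGFA passed with scaling by library size alone (log2 fold change −0.32, adjusted p = 0.0133). CSF1R, the receptor of macrophage colony-stimulating factor, had 28, 22 and 20 counts in METTL3 shRNA libraries and 22, 13 and 18 counts in control libraries and did not pass (log2 fold change 0.54, interval −0.17 to 1.25).

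Several receptors that anti-angiogenic kinase inhibitors act on were close to absent as RNA. KDR, the main VEGF-A receptor, had 4, 5 and 3 counts in METTL3 shRNA libraries and 3, 5 and 6 counts in control libraries. FLT1 had 0, 0 and 3 counts in METTL3 shRNA libraries and 2, 0 and 0 counts in control libraries, and FLT4 0, 0 and 1 counts in METTL3 shRNA libraries and 1, 0 and 0 counts in control libraries. KIT had 0, 0 and 0 counts in METTL3 shRNA libraries and 0, 0 and 1 counts in control libraries. RET had 0, 0 and 3 counts in METTL3 shRNA libraries and 0, 1 and 1 in control libraries, and PDGFRA had 1, 1 and 0 counts in METTL3 shRNA libraries and 0, 2 and 2 in control libraries. At these depths 3 counts correspond to 0.0299 to 0.0318 CPM in METTL3 shRNA libraries and 0.0273 to 0.0288 CPM in control libraries, and no difference was detectable. TEK, the angiopoietin receptor, had 6, 9 and 6 counts in METTL3 shRNA libraries and 5, 5 and 12 counts in control libraries, and EPHB3 4, 4 and 2 counts in METTL3 shRNA libraries and 8, 6 and 19 counts in control libraries, both too few for the filter. ERBB4, EPHB6 and HGF had at most 3 counts in any library, and EPHA7 and NTRK2 had 0 in all 6. Endothelial markers were likewise near 0. HGF, the ligand of MET, had 0, 2 and 0 counts in METTL3 shRNA libraries and 0, 0 and 0 counts in control libraries.

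Ephrin receptors signal between touching cells, and of the 5 tested among the 50 genes 2 fell and none rose (16.9% of all tested genes were lower and 16.5% higher). EPHA4 (chr2:221418027-221574202, minus strand) had 2.85, 3.43 and 3.45 CPM in METTL3 shRNA libraries and 5.44, 5.65 and 7.38 CPM in control libraries. In CPM every METTL3 shRNA library lay below every control library, and EPHA4 fell by 47.3% (log2 fold change −0.92, SE 0.14, adjusted p = 4.16e-04). In FPKM the groups overlapped, with 0.95, 0.8 and 1.48 in METTL3 shRNA libraries and 1.63, 1.44 and 2.2 in control libraries. With limma on log2(FPKM + 1) and no filter EPHA4 did not pass (adjusted p = 0.178). EPHB2 had 28.9, 32.3 and 40.2 CPM in METTL3 shRNA libraries and 42.7, 37.3 and 47.0 CPM in control libraries. Library C of METTL3 shRNA was above control library B, so the groups overlapped, and EPHB2 passed the test close to the threshold (log2 fold change −0.32, SE 0.12, adjusted p = 0.0450). It did not pass without METTL3 shRNA library A (adjusted p = 0.169) or B (0.143), nor without control library A (0.0879) or C (0.158). EPHB1 and EPHB4 did not pass, with log2 fold changes of −0.11 (adjusted p = 0.643) and −0.17 (adjusted p = 0.486). Exonic positions of EPHA4, EPHB1, EPHB2 and EPHB4 are shared with other annotated genes, so all 4 are less certain.

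EFNB1 and EFNB2, B-type ephrins that are membrane-bound ligands of EPHB receptors and EPHA4, fell as well. EFNB1 had 7.13, 6.55 and 6.22 CPM in METTL3 shRNA libraries and 10.5, 9.98 and 12.3 CPM in control libraries, without overlap (log2 fold change −0.72, SE 0.10, adjusted p = 3.36e-04). EFNB2 had 11.9, 13.6 and 17.7 CPM in METTL3 shRNA libraries and 18.8, 19.2 and 25.5 CPM in control libraries, also without overlap (log2 fold change −0.55, SE 0.14, adjusted p = 0.0100). EFNB2 did not pass without METTL3 shRNA library A (adjusted p = 0.0528) or B (0.0516). It shares exonic positions with AL138689.2, which makes it less certain. The remaining B-type ephrin, EFNB3, is not among the 50 genes and was named after its values were seen. EFNB3 had 0.497, 0.443 and 0.429 CPM in METTL3 shRNA libraries and 0.317, 0.385 and 0.282 CPM in control libraries, without overlap and with no call (log2 fold change 0.48, adjusted p = 0.154). EFNA1, a ligand of EPHA2, had 51.7, 48.6 and 65.8 CPM in METTL3 shRNA libraries and 55.6, 54.7 and 48.7 CPM in control libraries, with overlap and no call (log2 fold change 0.06, adjusted p = 0.680). Per length EFNA1 was the more abundant, at 42.7 ± 8.06 FPKM in METTL3 shRNA libraries and 44.3 ± 2.04 FPKM in control libraries, where EFNB1 averaged 2.11 ± 0.0985 FPKM in METTL3 shRNA libraries and 3.76 ± 0.520 FPKM in control libraries.

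Of the other receptors, NTRK3, which binds neurotrophin-3 (chr15:87859751-88256768, minus strand), had 51, 42 and 51 counts in METTL3 shRNA libraries and 135, 117 and 185 counts in control libraries. In CPM these were 0.540, 0.432 and 0.509 in METTL3 shRNA libraries and 1.30, 1.10 and 1.68 in control libraries, without overlap, and no other of the 37 genes fell as far in this fit (log2 fold change −1.46, SE 0.21, adjusted p = 3.35e-04). DDR1, a collagen receptor, had 44.1, 47.7 and 47.6 CPM in METTL3 shRNA libraries and 38.8, 36.1 and 41.5 CPM in control libraries. The groups did not overlap, but the rise was small (log2 fold change 0.26, SE 0.08, adjusted p = 0.0222) and did not pass without METTL3 shRNA library B (adjusted p = 0.0721), without control library A (0.0615) or B (0.110), or with scaling by library size alone (log2 fold change 0.15, adjusted p = 0.212). DDR1 shares exonic positions with MIR4640 on the same strand, which makes it less certain. DDR2, the other collagen receptor, had 1.40, 1.95 and 1.67 CPM in METTL3 shRNA libraries and 2.33, 2.24 and 1.92 CPM in control libraries and did not pass (log2 fold change −0.37, adjusted p = 0.0955), though it did with scaling by library size alone (−0.48, adjusted p = 0.0376). ERBB3, MST1R and TIE1 had group means of up to 0.31 CPM and wide intervals: −1.50 to 0.69 for ERBB3, −0.35 to 0.98 for MST1R and −0.16 to 1.49 for TIE1 on the log2 scale.

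Among ligands of ERBB receptors, amphiregulin and heparin-binding EGF moved in opposite directions. Both are made as membrane-anchored precursors, are released by proteases and bind EGFR. AREG (chr4:74445134-74455009, plus strand) had 7.18, 6.47 and 6.27 CPM in METTL3 shRNA libraries and 4.41, 4.64 and 4.16 CPM in control libraries. The groups did not overlap, and AREG rose by 50.7% (log2 fold change 0.59, SE 0.11, adjusted p = 0.00126). HBEGF (chr5:140332843-140346631, minus strand) had 15.4, 14.3 and 18.2 CPM in METTL3 shRNA libraries and 26.6, 26.7 and 27.0 CPM in control libraries. It fell by 40.4% without overlap (log2 fold change −0.75, SE 0.09, adjusted p = 1.29e-04). Within a library, the FPKM of AREG over that of HBEGF was 1.02, 0.976 and 0.745 in METTL3 shRNA libraries and 0.361, 0.377 and 0.335 in control libraries. EREG, epiregulin, had 46.9, 46.3 and 57.6 CPM in METTL3 shRNA libraries and 37.7, 44.1 and 47.2 CPM in control libraries, and its difference did not pass the test (log2 fold change 0.23, adjusted p = 0.108). NRG1, the ligand of ERBB3 and ERBB4, did not pass either (log2 fold change 0.12, adjusted p = 0.352).

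The upstream sequences of AREG and HBEGF are shown because the pair moved apart, and that of EPHA2 because it is the most abundant receptor. Each is the 250 bases before the start of the gene in RefSeq on GRCh38.p14, 5′ to 3′, and capitals mark a match to the cAMP response element TGACGTCA. The RefSeq starts differ from the GENCODE starts used for the gene positions given here, so each window runs into the gene by those positions.
AREG (chr4:74444886-74445135, plus strand): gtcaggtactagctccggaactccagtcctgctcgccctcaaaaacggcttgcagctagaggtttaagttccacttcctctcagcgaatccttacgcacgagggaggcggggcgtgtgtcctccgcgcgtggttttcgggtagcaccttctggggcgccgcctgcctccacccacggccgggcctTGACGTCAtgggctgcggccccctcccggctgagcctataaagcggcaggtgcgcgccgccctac
HBEGF (chr5:140346604-140346853, minus strand): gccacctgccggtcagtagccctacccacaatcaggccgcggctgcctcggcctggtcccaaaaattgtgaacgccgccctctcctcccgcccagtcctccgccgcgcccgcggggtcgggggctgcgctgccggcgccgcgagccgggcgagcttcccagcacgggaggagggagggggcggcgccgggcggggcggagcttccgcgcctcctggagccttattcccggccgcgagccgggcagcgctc
EPHA2 (chr1:16156070-16156319, minus strand): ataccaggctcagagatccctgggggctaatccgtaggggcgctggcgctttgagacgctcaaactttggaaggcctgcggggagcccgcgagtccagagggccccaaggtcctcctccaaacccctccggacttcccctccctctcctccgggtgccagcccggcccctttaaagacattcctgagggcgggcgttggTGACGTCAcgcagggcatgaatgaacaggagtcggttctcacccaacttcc
The match lies 65 bases before the RefSeq start in AREG and 51 bases before it in EPHA2, and HBEGF has none. Both strands of such windows were searched for TGACGTCA and for the AP-1 motif TGANTCA (N is any base), and no match of the response element holds one of AP-1. Of 34943 windows, 1.63% held the response element and 6.59% the AP-1 motif. Of the 50 genes 45 had a window, of which 3 held the response element and 4 the AP-1 motif. Among the genes that passed the test these were AREG alone for the response element and none for AP-1. A match is a description of letters and not of a bound factor.

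**Figure D4:**
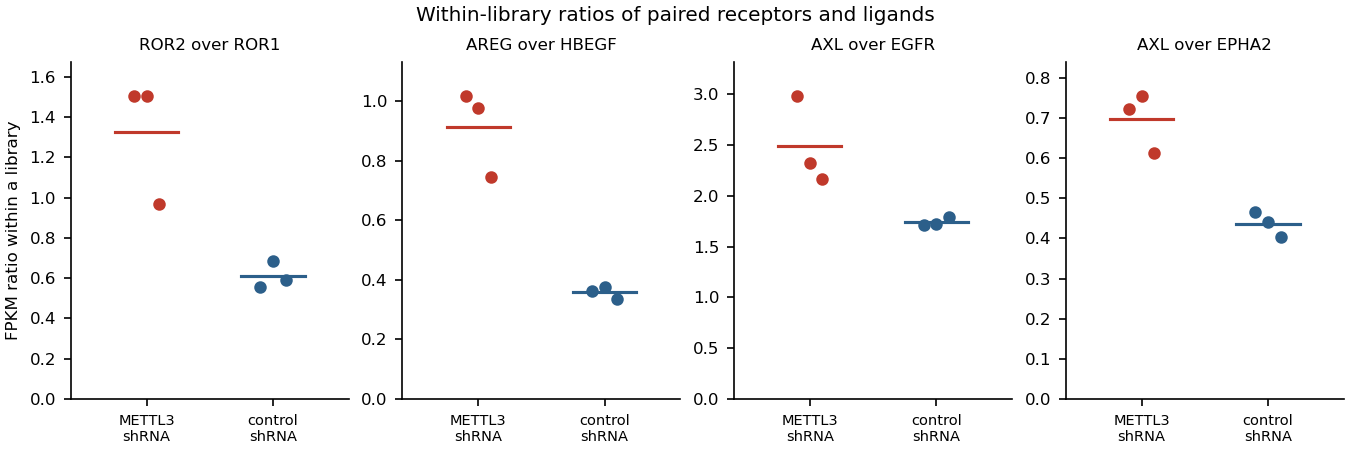
Ratio of the FPKM of one gene to that of another within each library (points) and group mean (line), METTL3 shRNA in red left of control shRNA in blue. All METTL3 shRNA points lie above all control points for ROR2 over ROR1 (lowest 0.968, against a highest of 0.683), AREG over HBEGF, AXL over EGFR and AXL over EPHA2.

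The 4 pairs in the plot of ratios were chosen after their values were seen. AXL over EGFR was 2.98, 2.33 and 2.17 in METTL3 shRNA libraries and 1.71, 1.72 and 1.79 in control libraries. AXL over EPHA2 was 0.723, 0.755 and 0.614 in METTL3 shRNA libraries and 0.465, 0.442 and 0.403 in control libraries. EPHA2 thus stayed above AXL in each library, by a smaller margin in the METTL3 shRNA libraries.

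The genes can also be read by their level. Of the 16 tested members under 10 CPM on average, 2 rose and 7 fell (56.2% called), where 14.4% of tested genes at that level rose and 12.4% fell (26.8% called). In 9 of the 16 the groups did not overlap, against 41.6% of tested genes at that level. Of the 21 at 10 CPM or more, 3 rose and 5 fell (38.1% called), where 18.6% rose and 21.4% fell (40.1% called). In 9 of the 21 the groups did not overlap, against 53.1%. Among the more abundant members the called share was thus near that of all genes at that level. By role, 4 of 27 tested receptors rose (14.8%) and 8 fell (29.6%), and 1 of 10 tested ligands rose and 4 fell, where 16.5% of all tested genes rose and 16.9% fell. The share of receptors that rose was near that of all genes.

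**Figure D5:**
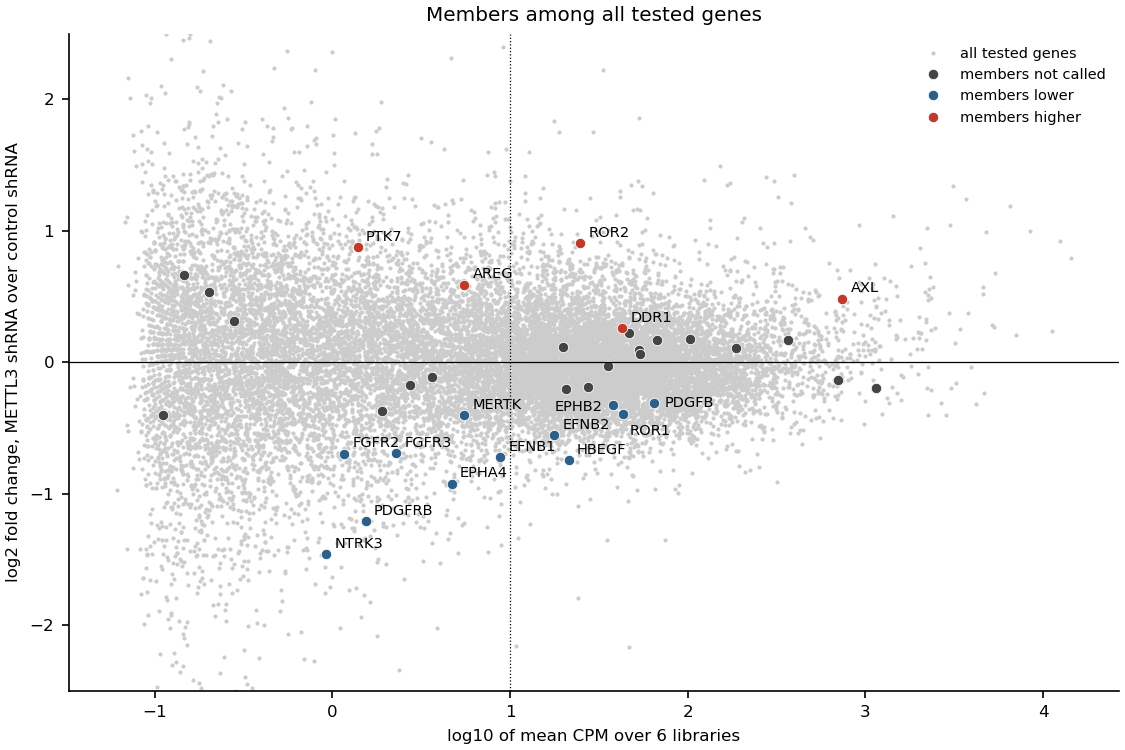
Log2 fold change, METTL3 shRNA over control shRNA (y axis), against the log10 of the mean CPM over 6 libraries (x axis) for all 18740 tested genes (grey) and the 37 tested receptors and ligands (coloured); 29 genes lie beyond the y axis at 2.5. The 7 falls left of the dotted line at 10 CPM run from −0.40 for MERTK to −1.46 for NTRK3, and AXL lies far to the right at 0.48.

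Genes of the wider pathway were read from lists that share no gene with the 50. Of 18 further receptor tyrosine kinases, 9 were tested and 1, the ephrin receptor EPHA6, was called, as a rise (11.1%, against 16.5% of all tested genes; log2 fold change 0.56, SE 0.20, adjusted p = 0.0441), a call kept only in the fit without METTL3 shRNA library C among those that left out 1 library. LTK, EPHA8 and STYK1 came next by p and did not pass. With scaling by library size alone EPHA6 did not pass (adjusted p = 0.0977). LTK, EPHA8 and STYK1 passed as lower with that scaling (0.0300, 0.0435 and 0.0382), where 4727 of all 18740 tested genes were lower. In the fits that left out 1 library, 1 of the 9 was lower without METTL3 shRNA library A or control library A or B, and 2 were lower without METTL3 shRNA library C. Of all genes, 2506 of 19170 were lower without METTL3 shRNA library A and 3324 of 19142 without library C. Lower without control library A were 2696 of 19155, and without control library B 2330 of 19113. Of 47 further ligands and coreceptors, 34 were tested, of which 9 rose and 9 fell (26.5% each way, against 16.5% and 16.9% of all tested genes). IGF2, a ligand of IGF1R and the insulin receptor, had 3.03, 2.92 and 2.72 CPM in METTL3 shRNA libraries and 1.01, 1.27 and 1.15 CPM in control libraries (log2 fold change 1.34, SE 0.15, adjusted p = 7.52e-05). MST1, the ligand of MST1R, rose (log2 fold change 0.72, SE 0.11, adjusted p = 5.08e-04), whereas BDNF, the ligand of NTRK2, and FGF2 fell (−0.73 and −0.62 on the log2 scale, adjusted p = 9.06e-05 and 4.33e-04).

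Of the ligands of the near-absent VEGF receptors, VEGFA, VEGFB, VEGFC and PGF were present, and they were chosen after their values were seen. VEGFD had 4, 7 and 6 counts in METTL3 shRNA libraries and 6, 5 and 8 counts in control libraries and was not tested. All belong to the further ligands and coreceptors, of which 26.5% of those tested rose, against 16.5% of all tested genes. VEGFA had 830.5, 907 and 694 FPKM in METTL3 shRNA libraries and 641, 628 and 510.1 FPKM in control libraries, and rose on the count scale (log2 fold change 0.58, SE 0.13, adjusted p = 0.00452). VEGFB, VEGFC and PGF rose too, with log2 fold changes of 0.61, 0.38 and 0.57 (adjusted p = 0.00119, 0.00444 and 0.0141). PGF did not pass without METTL3 shRNA library A (adjusted p = 0.0877) or B (0.0704). The coreceptors NRP1 and NRP2, which bind VEGF and semaphorins, fell by 23.7% and 28.2% (log2 fold changes −0.39 and −0.48, adjusted p = 0.00182 and 9.85e-04). WNT5A, the ligand of the ROR pair, rose (log2 fold change 0.30, SE 0.10, adjusted p = 0.0317), a call lost without METTL3 shRNA library B (adjusted p = 0.158) and without control library B (0.0696) or C (0.109). It was also lost with scaling by library size alone (log2 fold change 0.19, adjusted p = 0.150). TGFA, a ligand of EGFR, had 299, 362 and 313 FPKM in METTL3 shRNA libraries and 317, 327 and 297 FPKM in control libraries and did not pass (log2 fold change 0.09, adjusted p = 0.467).

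Signalling genes downstream of the receptors were read next. Of 26 adaptors and RAS-MAPK genes, 5 rose (19.2%, against 16.5% of all tested genes) and 1 fell (3.85%, against 16.9%). RRAS, a RAS-related GTPase, had 89.3, 77.4 and 63.8 CPM in METTL3 shRNA libraries and 40.4, 38.8 and 35.7 CPM in control libraries (log2 fold change 1.00, SE 0.11, adjusted p = 6.10e-05), and MAPK3, which encodes ERK1, rose as well (log2 fold change 0.53, SE 0.09, adjusted p = 0.00110). GAB2, an adaptor, and NRAS rose by 0.34 and 0.28 on the log2 scale (adjusted p = 0.0211 and 0.0259). FRS3, an adaptor of FGF receptors, rose (0.29, adjusted p = 0.0267) and the adaptor GRB2 fell (−0.25, adjusted p = 0.0307), and both were named after their values were seen. Each of these 4 lost its call in 3 or 4 of the 6 fits that left out 1 library, with adjusted p of up to 0.112 for GAB2 and up to 0.120 for NRAS. With scaling by library size alone GAB2, NRAS and FRS3 did not pass (adjusted p = 0.0948, 0.162 and 0.166), while GRB2 did (0.00757). Without METTL3 shRNA library B 2 of the 26 rose, without control library A, B or C 3 rose, and none fell without METTL3 shRNA library A or B or control library A or C, while 5 fell without METTL3 shRNA library C. Of all genes, 2506 of 19170 were lower without METTL3 shRNA library A and 3324 of 19142 without library C. Without METTL3 shRNA library B 2053 of 19146 were higher and 1959 lower. Without control library A 2677 of 19155 were higher and 2696 lower. Higher without control library B were 2309 of 19113. Without control library C 2349 of 19045 were higher and 2304 lower. Among genes of PI3K-AKT and phospholipase C signalling, AKT2, STAT3 and PDPK1 had log2 fold changes of 0.20, −0.18 and −0.21 and did not pass (adjusted p = 0.0718, 0.0813 and 0.105).

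Negative regulators and proteases were measured as well. Of 22 feedback inhibitors and genes of receptor turnover, 3 rose and 1 fell, shares of 13.6% and 4.55% that lie below the 16.5% and 16.9% of all tested genes. ERRFI1, an inhibitor of EGFR, had 2250.1, 2503 and 2014 CPM in METTL3 shRNA libraries and 1474, 1472 and 1134 CPM in control libraries (log2 fold change 0.73, SE 0.12, adjusted p = 6.69e-04). LRIG1, which promotes the degradation of ERBB receptors, and IL17RD, an inhibitor of FGF signalling, rose by 0.73 and 0.79 on the log2 scale (adjusted p = 5.15e-04 and 0.00140). USP8, a deubiquitinase of endosomes, fell (−0.25, adjusted p = 0.0243), a call lost without METTL3 shRNA library A or B or control library B or C (adjusted p = 0.0720, 0.0623, 0.0557 and 0.0864). Without METTL3 shRNA library C 2 of the 22 fell, where 3324 of all 19142 tested genes were lower. Of 9 genes of the shedding of receptors and ligands, 8 were tested, and 3 rose (37.5%, against 16.5% of all tested genes) and 1 fell (12.5%, against 16.9%). TIMP2, a metalloprotease inhibitor, and RHBDF1 and RHBDF2, partners of the sheddase ADAM17, rose by 0.88, 0.33 and 0.33, and ADAM12, a metalloprotease, fell (−0.56; adjusted p = 4.41e-05, 0.00626, 0.0206 and 0.00153). RHBDF2 did not pass without METTL3 shRNA library A or B or control library B or C (adjusted p up to 0.0950), nor with scaling by library size alone (0.0621). Without METTL3 shRNA library A 2 genes of this list fell, where 2506 of all 19170 tested genes were lower. Of 10 transcripts that follow MAPK activity, EGR1 alone passed (1 of 10 lower, against 16.9% of all tested genes), with 3.20, 4.10 and 3.08 CPM in METTL3 shRNA libraries and 7.11, 6.40 and 4.07 CPM in control libraries (log2 fold change −0.76, SE 0.18, adjusted p = 0.00708), and the groups overlapped. CCND1, ETV5 and MYC, next by p, did not pass. Without METTL3 shRNA library C 1 of the 10 rose, where 3265 of all 19142 tested genes were higher.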

How the data were processed

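Total RNA of 786-O cells was depleted of ribosomal RNA and sequenced as paired ends on a DNBSEQ platform, per the labels' protocols. STAR 2.7.10b, Salmon and the GRCh38 build are named, per the submitters’ processing notes, with no role given. No source used here gives the annotation release or the strand setting of the counting. The authors deposited whole-number counts and FPKM values for 61860 Ensembl genes in 6 libraries, with no other columns. The columns of the control shRNA are named as such. The other 3 carry the name 812, which no label explains, and were assigned to METTL3 shRNA by elimination, with the METTL3 level as the check. No label ties the column letters (A, B, C) to a replicate number.

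Counts were filtered with filterByExpr, which left 18740 genes, scaled by TMM and compared by the quasi-likelihood test of edgeR 4.0.16 in R 4.3.3, with Benjamini-Hochberg adjustment over all tested genes at 0.05. The F statistic gave the standard errors. CPM values express the deposited counts relative to a library total adjusted by TMM, and levels between genes are the FPKM as deposited. Within a group the libraries differed beyond sampling noise (chi-square over degrees of freedom 16.4 to 62.2), and each counted as 1 sample. With about the same depth in all libraries, the spread between them limits precision except at low counts. Members, pathway lists and tests were chosen with earlier results of these data known. Named in full were the members that passed the test and the drug-targeted receptors, and of each pathway list the 4 genes with the smallest p. Others were named after their values were seen where the text says so, and some genes that met the rule are left out. Gene positions, exon overlaps and transcripts were read from GENCODE 29 on GRCh38, which holds 58308 of the 61860 identifiers, and upstream sequences from RefSeq on GRCh38.p14. The procedure was tested on simulated counts. The alternatives tried were RLE size factors of the DESeq2 type, library size alone, DESeq2 1.42.0, limma-voom (limma 3.58.1), other filters, limma on log2(FPKM + 1) and log2(FPKM + 0.1), the column letter as a replicate block, and leaving out each library.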

Additional observations from a re-analysis of the deposited data

How the results depend on the processing

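None of the named genes that passed the test changed sign under any of the 16 alternatives. Of the 17 receptors and ligands that passed the test, 12 passed in all 6 fits that left out 1 library, and the losses of the other 5 stand beside their values. DESeq2-type size factors, DESeq2, limma-voom and a filter of 1 CPM gave 5 higher and 12 lower members, all 17 calls kept. With library size alone 1985 genes were higher. With limma on log2(FPKM + 1) 3 members and 1588 genes were higher, and with log2(FPKM + 0.1) 1568 genes were. These 2 fits did not test FGFR2, PDGFRB and NTRK3 at a filter of 0.5 FPKM, and EPHB2 and DDR1 did not pass in either, nor PTK7 in the first, while FGFR4, EPHA2 and PDGFA passed as lower in both. Without that filter, log2(FPKM + 1) gave 3 members higher and 5 lower and 1027 genes higher, with 7 of the 17 calls kept, and the cause was not tested. Leaving out each library gave 4 to 6 members higher and 8 to 13 lower, and 2053 to 3265 genes higher and 1959 to 3324 lower, both lowest for all genes without METTL3 shRNA library B. With the column letter as a replicate block 6 members were higher and 13 lower, since EREG and EPHA2 were gained, and 3421 genes were higher and 3564 lower. Deviations of same-lettered libraries correlated by 0.04, −0.08 and 0.28, and those of the other pairs by −0.26 to 0.25. These few values cannot tell whether same-lettered libraries share more than a name. Depth limits the 13 untested members, for which at most 19 counts were seen in a library.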

Other observations

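For some scarce receptors the deposited counts and FPKM values did not run in parallel. ERBB3 had 10, 10 and 8 counts in METTL3 shRNA libraries and 4, 14 and 23 counts in control libraries, while its FPKM were 0.04, 0.05 and 0.05 in METTL3 shRNA libraries and 0.02, 0.2 and 0.41 in control libraries. RYK, which was not scarce, differed in sign between the scales. Its log2 fold change on the count scale was 0.09 with TMM and −0.02 with scaling by library size alone. Its mean FPKM were 26.2 ± 1.59 in METTL3 shRNA libraries and 29.1 ± 1.22 in control libraries (SD, n = 3 each). The sign on the count scale thus depended on the scaling. No source used here tells how transcript lengths entered the FPKM.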
